A study of Mus musculus with 2 samples.

Results

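Sites of high Gata3 ChIP-seq read density that lie 1 to 100 kb from a gene start and hold both a GATA and an AP-1 motif were examined in the Gata3 ChIP-seq of in vitro expanded TH2 cells. Chromosomes 1 to 19 of GRCm38 were divided into 200-bp bins, and reads of each library were counted and scaled to 1000000 counted reads (RPM). A site was a run of touching bins at 0.8 RPM or more in both libraries, and its centre was the middle of the bin with the highest lower RPM. Of 10800 sites, 8080 had their centre 1 to 100 kb from the nearest protein-coding gene start, and 770 of these held both motifs within 100 bp of the centre. The 770 sites were thus selected on their height in both libraries, their distance to a start and their motifs, which are given as a description. They are called distal sites here, since no histone mark, chromatin opening or transcription was used that would show enhancer activity.

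The study used mouse TH2 cells grown in vitro, with the anti-GATA3 antibody clone D13C9 and ChIPmentation. In ChIPmentation a transposase (Tn5) cuts the immunoprecipitated chromatin on the beads and adds the adaptors. Per the methods, mouse TH2 cultures started from splenic naive CD4+ T cells. These were stimulated with plate-bound anti-CD3 and with anti-CD28, and given IL-2, IL-4 and an antibody neutralising IFN-γ. The ChIP-seq methods themselves name only in vitro TH2 cells. There were 2 libraries, replicates 1 and 2 of the same condition, and all values below come from them. The extraction protocol in the labels names ILC2 where every other field and the study's methods name TH2 cells, and the latter was followed. The labels gave no genotype, treatment or age for these libraries, and nothing in them says whether the replicates came from separate mice or cultures. Without a second condition no group could be compared, and without an input or IgG library heights were read only against the same library's surroundings. Reads of DNA do not carry expression, so the TH2 identity could not be checked through marker transcripts.

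Library 1 held 40526613 deposited reads and library 2 held 24970952, of which 39287837 and 24084150 lay on chromosomes 1 to 19. In both libraries 0 reads were found at the start and strand of an earlier read. Duplicates had therefore been removed before deposit, and the height of a bin is capped. The read names carried different instrument names in the 2 libraries, so differences between the libraries and between sequencing runs cannot be told apart.

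Gata3 is the zinc-finger transcription factor that directs TH2 differentiation and the expression of the TH2 cytokines, and it recognises GATA motifs. AP-1 is a dimer of bZIP proteins of the Fos, Jun and Batf families, which are induced or activated by T cell receptor signalling and bind a palindromic heptamer. Distal regulatory elements are typically short stretches of open chromatin to which several such factors bind together, and they can act on a gene start over long distances. Here the GATA motif was the letters GATA with A or T before them and A or G after them (the forms AGATAA and AGATAG, and the forms TGATAA and TGATAG), and the AP-1 motif was TGACTCA or TGAGTCA. Both strands were searched and overlaps were allowed. An antibody to Gata3 was used, so a match to the AP-1 motif is a description of the sequence and not a measure of AP-1 binding.

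The sequences of the 3 tallest sites are shown whole, to let the arrangement of the motifs be seen. Each is the plus strand of GRCm38, 5′ to 3′, with 100 bp to either side of the centre, with the GATA and AP-1 motifs in capitals (a GATA motif of the minus strand reads TATC in its middle here).
Crybb1, chr5:112264200-112264400: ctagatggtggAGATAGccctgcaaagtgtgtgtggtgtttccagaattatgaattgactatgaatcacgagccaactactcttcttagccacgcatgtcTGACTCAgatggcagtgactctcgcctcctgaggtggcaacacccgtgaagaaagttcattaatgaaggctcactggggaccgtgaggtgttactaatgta
Grb7, chr11:98470200-98470400: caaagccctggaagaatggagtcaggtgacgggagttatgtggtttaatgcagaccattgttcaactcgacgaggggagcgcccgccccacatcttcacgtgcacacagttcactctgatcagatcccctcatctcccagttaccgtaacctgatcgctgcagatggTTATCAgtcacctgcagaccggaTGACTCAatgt
Slc25a1, chr16:17949400-17949600: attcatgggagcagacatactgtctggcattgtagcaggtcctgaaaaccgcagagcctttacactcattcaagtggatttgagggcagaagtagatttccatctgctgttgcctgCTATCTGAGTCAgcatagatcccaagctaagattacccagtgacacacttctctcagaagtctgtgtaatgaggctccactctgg

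The site nearest to the start of Crybb1, a lens crystallin gene, was the tallest of the 770, with 224 reads in library 1 (95% exact Poisson interval 196 to 255) and 176 in library 2 (151 to 204) in its centre bin. That is 5.70 and 7.31 RPM. It lay in an intron of Crybb1, 8.49 kb downstream of its start, with 83 bases between its AGATAG and its TGACTCA. The next site, nearest to Grb7, lay within an intron of Ikzf3, which encodes a lymphocyte zinc-finger factor, so the nearest start and the host gene differ. It had 199 and 163 reads (5.07 and 6.77 RPM), and 17 bases separated its motifs. The site upstream of Slc25a1, the mitochondrial citrate carrier gene, was intergenic and had 199 and 152 reads (5.07 and 6.31 RPM). Its motifs shared 1 base. Against the mean of the bins 2 to 10 kb away it stood 88.4-fold higher in library 1 and 104-fold in library 2, compared with 15 and 17.9 at Crybb1. The counting intervals of the 3 sites overlapped in both libraries, so their order was within counting error. Intervals here cover counting error only.

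Of the 5 overlapping pairs, 4 are given next with 12 bases to either side, as the most compact arrangement found. In 2 of them the GATA motif came first on the plus strand and in 2 the AP-1 motif.
Slc25a1, chr16:17949504-17949539: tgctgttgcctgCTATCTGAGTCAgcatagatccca
Smad3, chr9:63745975-63746010: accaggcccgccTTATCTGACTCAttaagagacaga
Tspan3, chr9:56197096-56197131: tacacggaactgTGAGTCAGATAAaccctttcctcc
Ctse, chr1:131657969-131658004: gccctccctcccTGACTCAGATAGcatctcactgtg

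Pairs at sites whose nearest start is that of a TH2 gene or of a bZIP gene are shown as examples. The nearest start alone assigned them, and they were picked by theme. Sites nearest to other T cell genes, such as Ikzf1, Egr3 and Irf4, were taller. Il4ra encodes the IL-4 receptor alpha chain, Il9 and Il24 encode cytokines of TH2 cells, and Cd200r1 encodes an inhibitory receptor. Batf, Jun and Atf3 encode bZIP factors.
Il4ra, chr7:125543607-125543668: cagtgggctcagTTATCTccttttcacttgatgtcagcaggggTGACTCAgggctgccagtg
Il9, chr13:56488201-56488297: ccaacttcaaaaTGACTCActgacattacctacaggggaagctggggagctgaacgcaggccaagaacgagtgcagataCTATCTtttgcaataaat
Il24, chr1:130894669-130894728: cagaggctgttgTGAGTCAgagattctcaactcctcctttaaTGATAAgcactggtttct
Cd200r1, chr16:44772826-44772874: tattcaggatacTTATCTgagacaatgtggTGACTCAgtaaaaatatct
Batf, chr12:85706341-85706401: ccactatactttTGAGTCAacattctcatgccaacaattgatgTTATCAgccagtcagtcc
Jun, chr4:95123418-95123557: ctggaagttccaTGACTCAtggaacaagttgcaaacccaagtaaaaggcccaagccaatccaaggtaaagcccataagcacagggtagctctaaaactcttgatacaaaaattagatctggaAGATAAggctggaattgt
Atf3, chr1:191233544-191233598: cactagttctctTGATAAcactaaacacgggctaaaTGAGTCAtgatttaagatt

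Sites with many copies are shown whole, since copies drew on repeated letters at some of them. The Tmem131 site held 5 GATA motifs spread over its window. At 3110018I06Rik 8 GATA motifs came from 1 tandem repeat, so its copies are not separate in sequence. The Slc6a5 site held 3 AP-1 motifs, each within a near-identical repeated unit. The Il7r site held 3 AP-1 motifs, 2 of them directly adjacent. Il7r encodes the IL-7 receptor alpha chain.
Tmem131, chr1:36920400-36920600: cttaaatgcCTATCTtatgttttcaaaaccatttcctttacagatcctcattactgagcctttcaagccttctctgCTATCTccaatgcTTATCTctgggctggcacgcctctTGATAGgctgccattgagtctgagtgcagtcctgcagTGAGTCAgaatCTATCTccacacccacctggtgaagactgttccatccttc
3110018I06Rik, chr12:107555800-107556000: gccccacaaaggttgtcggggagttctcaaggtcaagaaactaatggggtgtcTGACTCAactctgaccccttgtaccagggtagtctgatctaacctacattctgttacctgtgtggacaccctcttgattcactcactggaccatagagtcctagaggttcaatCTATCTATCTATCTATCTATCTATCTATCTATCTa
Slc6a5, chr7:49863800-49864000: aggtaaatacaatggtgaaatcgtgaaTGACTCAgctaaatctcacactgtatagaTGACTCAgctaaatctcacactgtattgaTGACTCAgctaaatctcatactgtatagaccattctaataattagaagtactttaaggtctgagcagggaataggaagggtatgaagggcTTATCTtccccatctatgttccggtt
Il7r, chr15:9556000-9556200: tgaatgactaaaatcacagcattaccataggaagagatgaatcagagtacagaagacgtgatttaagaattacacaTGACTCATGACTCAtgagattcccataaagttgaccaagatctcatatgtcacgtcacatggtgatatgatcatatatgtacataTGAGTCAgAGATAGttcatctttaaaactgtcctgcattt

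The 770 sites ranged over 0.815 to 5.70 RPM in library 1 (median 1.73) and over 0.830 to 7.31 RPM in library 2 (median 1.54). In reads, the centre bins held 32 to 224 (median 68) in library 1 and 20 to 176 (median 37) in library 2. The median site stood 14.2-fold over the mean of the bins 2 to 10 kb away in library 1 and 12.7-fold in library 2. Most sites were narrow, with a median run of 400 bp and a range of 200 to 2000 bp. At the threshold, 11 sites lay just inside it with a lower RPM of 0.815, and the nearest value outside it was 0.789. A further 305 sites with both motifs had a lower RPM of 0.6 to 0.8 and were left out. By distance, the closest site was 1033 bp from a start and the farthest 99395 bp, and the nearest sites left out were at 988 and 100047 bp.

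The 20 tallest sites spanned 4.25 to 5.70 RPM in library 1 and 4.28 to 7.31 RPM in library 2, and 16 of them were higher in library 2. After the first 3 came the sites nearest to Nsd3, St3gal1, Gsn, Mdm1, Fignl1, Aqp3 and Klf6, with 186 to 196 reads in library 1 and 115 to 155 in library 2. Nsd3 encodes a histone methyltransferase, St3gal1 a sialyltransferase, Gsn the actin-severing protein gelsolin, Aqp3 an aquaporin and Klf6 a zinc-finger factor. The remaining 10 were nearest to Tmem131, Lactb, Sult6b2, Babam2, Tnfrsf23, Ikzf1, Tmem94, Tnfaip8, Mapkapk3 and Ttc39b. Of the 20, 12 lay in introns and 8 between genes. The introns were those of the nearest gene except at Grb7 (Ikzf3), Fignl1 (Ddc) and Tnfrsf23 (Osbpl5). The Ikzf1 site, in an intron of the gene for the lymphoid factor Ikaros, had 173 and 105 reads but only an 8.77- and 7.52-fold excess over its surroundings, the lowest folds of the 20. The spacing of the closest pair in these 20 ran from an overlap to 98 bases.

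**Figure D1:**
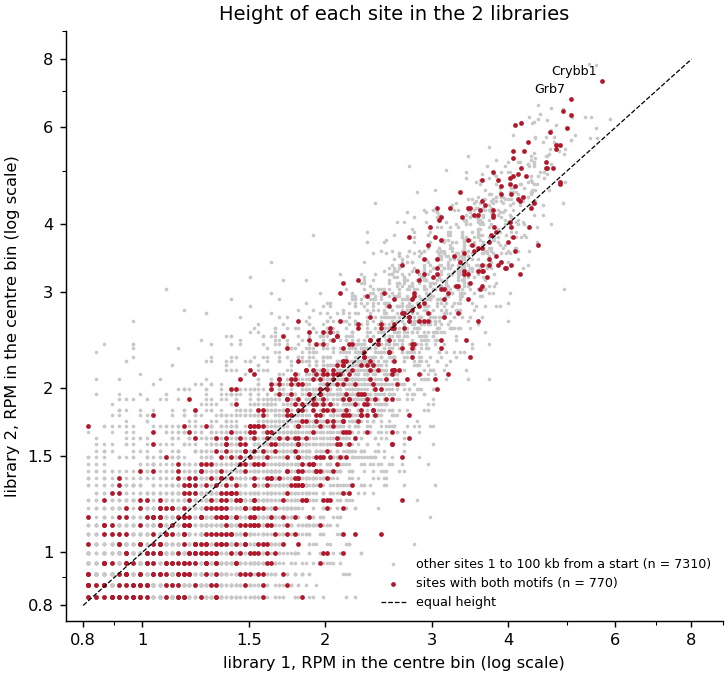
Each point is a site 1 to 100 kb from a gene start, with its RPM in the centre bin in library 1 (x axis) and library 2 (y axis), both on log scales. Red points are the 770 sites with both motifs, grey points the others, and the dashed line marks equal height. The red points run along the line from 0.8 to 7.31 RPM, and most of the tallest lie above it.

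The heights of the 770 sites in the 2 libraries followed each other, with a Pearson's r of 0.891 for log10 RPM and a Spearman's rho of 0.861. This is a description over sites, which share the 2 libraries and the thresholds in both. The ratio of library 2 to library 1 had a median of 0.940 and moved with height. Among the 165 sites at 0.8 to 1 RPM it was 0.873, with 47 sites (28.5%) higher in library 2. Among the 35 sites at 4 RPM or more it was 1.16, with 31 sites (88.6%) higher in library 2. The other distal sites moved alike, from 0.901 to 1.13.

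Site by site, the reads of the centre bin were compared between the libraries with a two-sided exact binomial test, adjusted by Benjamini-Hochberg over all 10800 sites. The test compares 2 libraries, not conditions. The centre bins had already been selected on their height in both libraries, which limits how far they can differ, so nothing is read from how few were called. It called 3 of the 770 sites (0.390%) at an adjusted p under 0.05, beside 0.611% of all sites. At an unadjusted p under 0.05 there were 71 of the 770 (9.22%), beside 9.60% of all sites. The sites nearest to Lrrc6 (161 and 146 reads, 4.10 and 6.06 RPM) and Lonrf1 (165 and 147 reads, 4.20 and 6.10 RPM) were called higher in library 2, beside 0.5% of all sites. The site nearest to Slc6a20a, which lay in an exon where Ccr9 and Lztfl1 overlap, was called higher in library 1 with 97 against 26 reads (2.47 and 1.08 RPM), beside 0.111% of all sites. The direction of the calls depended on the scaling. With the expected share taken from the library totals, 0 of the 770 sites were called higher in library 2, so that the calls at Lrrc6 and Lonrf1 were lost, and 2 were called higher in library 1. Over all sites the calls higher in library 1 and library 2 went from 12 and 54 to 20 and 28. Over the wider 500 bp to either side of the centre the same test called 131 of the 770 sites (17.0%), beside 19.5% of all sites. Of these, 63 were higher in library 1 and 68 in library 2, beside 9.39% and 10.1% of all sites. The wider windows hold more reads and did not have to pass the threshold, so the counts of the 2 tests are not compared.

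Among the 8080 distal sites, 770 held both motifs (9.53%, 95% exact binomial interval 8.90 to 10.2), 4628 GATA only (57.3%), 432 AP-1 only (5.35%) and 2250 neither (27.8%). Of the 5398 with a GATA motif, 14.3% also held AP-1. Of the 1202 with an AP-1 motif, 64.1% also held GATA. Over all 8080 distal sites, 1202 held AP-1 and 5398 held GATA, in each case a slightly higher share than the 14.3% and 64.1%. A preference of the 2 motifs for each other among these sites is therefore not described. As a background, 1.15% of the 5559849 bins at this distance with a read held both motifs in the same window, 32.8% GATA only and 2.44% AP-1 only. In the 1540 windows 1 kb to either side of the 770 sites, 14 held both (0.909%). Bins at 0.8 RPM or more in both libraries numbered 17.8 per 1000 of those with both motifs, 4.63 of those with GATA only, 6.93 of those with AP-1 only and 2.17 of those with neither. Outside sites, bins with both motifs also held more reads on average, 5.04 in library 1 and 2.89 in library 2, against 3.81 and 2.39 with neither motif.

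The share of distal sites with both motifs went up with the height of the site. It was 6.53% at 0.8 to 1 RPM, 8.80% at 1 to 1.5, 11.5% at 1.5 to 2 and 11.4% at 2 to 3. It was 17.1% at 3 to 4 RPM and 25.2% at 4 RPM or more (35 of 139, exact interval 18.2 to 33.2). The intervals of the bands at 1 to 1.5, 1.5 to 2 and 2 to 3 RPM overlapped from each band to the next, as did those of the top band and the one before it. They cover counting error over sites of the same 2 libraries, and no difference between bands was tested. Across the same bands the share with AP-1 only stayed between 5.19% and 6.47%, and the share with neither went from 32.4% to 7.91%. From the lowest to the top band, sites without a GATA motif went from 131 with AP-1 and 817 without to 9 and 11. Sites with a GATA motif went from 165 with AP-1 and 1412 without to 35 and 84. A larger part thus held AP-1 in the top band with or without a GATA motif, and the rise is not described as particular to the pair. Of the 100 tallest distal sites 23 held both motifs, with any GATA motif in 84% and any AP-1 motif in 31%. Of the 1000 tallest 149 held both, with any GATA motif in 75.9% and any AP-1 motif in 20.4%. The median of the lower RPM was 1.45 with both motifs, 1.25 with GATA only, 1.25 with AP-1 only and 1.15 with neither.

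**Figure D2:**
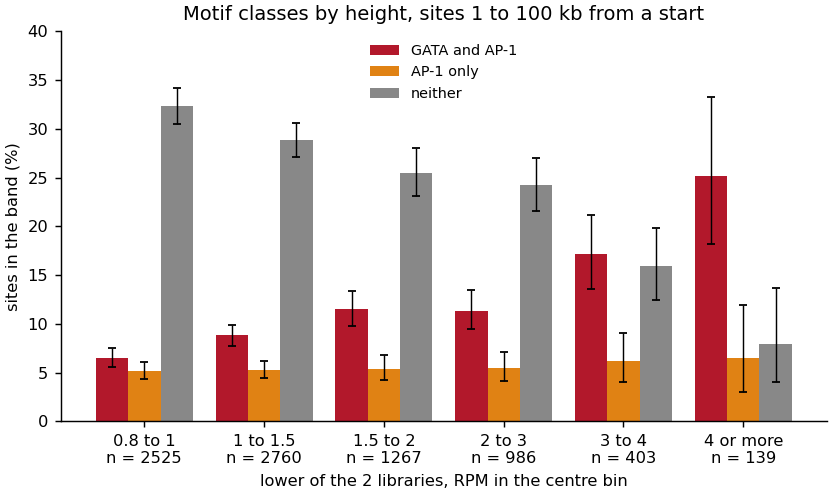
Bars give the percent of the distal sites in each band of height (lower RPM of the 2 libraries, x axis) that held both motifs (red), AP-1 only (orange) or neither (grey), with 95% exact binomial intervals. The n under each band counts its sites, GATA-only sites make up the rest, and the red share climbs from 6.53% to 25.2% while the grey share falls from 32.4% to 7.91%.

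Since height in both libraries entered the rule, heights were also read in the library that did not call the site. Among sites called from the reads of library 1 alone, the median RPM in library 2 was 1.08 with both motifs (n = 1118), 0.872 with GATA only (n = 7996), 0.997 with AP-1 only (n = 619) and 0.872 with neither (n = 3390). Among sites called from the reads of library 2 alone, the median RPM in library 1 was 1.60 with both motifs (n = 835), 1.32 with GATA only, 1.40 with AP-1 only and 1.15 with neither. The class with both motifs had the highest median in either direction. Of the sites with both motifs called in library 1, 66.5% also reached 0.8 RPM in library 2. The shares were 55.9% with GATA only, 64.5% with AP-1 only and 55.9% with neither. The other way round it was 89.6% with both motifs, against 82.1%, 84.3% and 73.1%. This reading was added after the first values were seen.

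Averaged over the 770 sites, Tn5 cuts within 100 bp of the centre came to 2.0 per 1000000 reads in library 1 and 1.88 in library 2. The same length 800 to 1000 bp away held 0.200 and 0.260, a 9.99- and 7.26-fold difference. For GATA only the folds were 7.67 and 5.94, for AP-1 only 8.18 and 6.45, and for neither 7.0 and 5.54. The mean profile with both motifs was 480 bp wide at the middle of its height in library 1 and 420 bp in library 2, compared with 400 to 480 bp for the other classes.

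**Figure D3:**
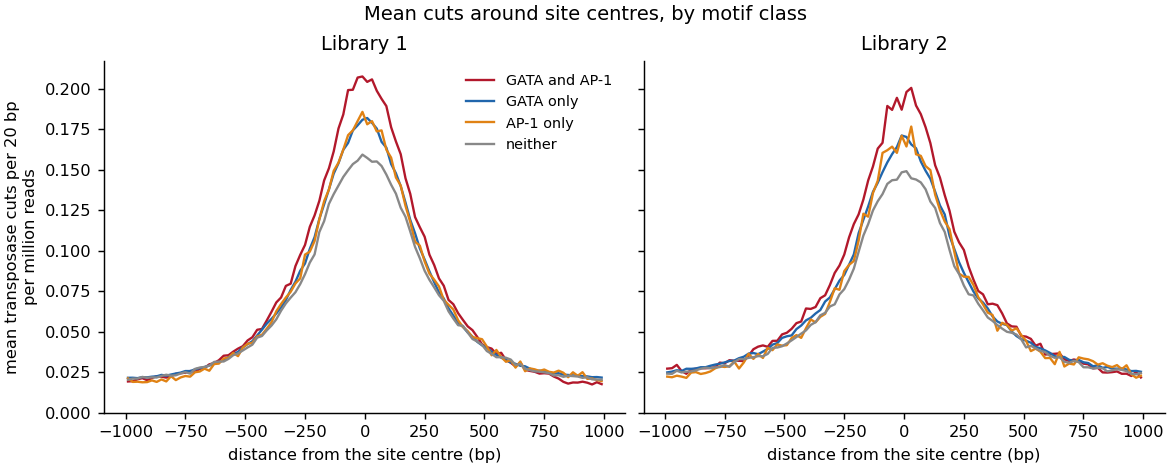
Lines give the mean number of Tn5 cuts per 20 bp and per 1000000 reads (y axis) against the distance from the site centre in bp (x axis), for library 1 on the left and library 2 on the right. The red line, for the 770 sites with both motifs, stands above the other 3 classes at the centre in both libraries and meets them at the edges.

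The closest GATA and AP-1 motifs of a site were a median of 33 bases apart (quartiles 15 and 61, at most 185). In the 61643 windows outside sites with both motifs the median was 48 (20 and 87). A pair within 20 bases was found at 263 sites (34.2%), against 25.5% of those windows, and a spacing of 100 bases or more at 60 sites (7.79%), against 19%. Of the motif copies at the sites, 53.4% of GATA and 58.2% of AP-1 lay within 50 bp of the centre. At sites with GATA only it was 51.4% of GATA copies, and at sites with AP-1 only 53.2% of AP-1 copies. The part of motif position in the shorter spacing was not tested. Windows at the threshold in both libraries numbered 26.8 per 1000 at 10 to 19 bases, 19.8 at 0 to 9, 21.3 at 20 to 29 and 10.6 at 100 or more. Overlapping pairs were at 13.8 per 1000, with 5 sites in all (0.649%, against 1.14% of the windows). No single spacing held most of the sites. Relative to the GATA motif, AP-1 lay on the 3′ side at 373 sites and on the 5′ side at 397 (48.4% on the 3′ side, against 49.3% of the windows). Among sites that had passed the 0.8 RPM threshold, the median lower RPM was 1.49 within 20 bases against 1.43 beyond, and 1.48 with AP-1 on the 3′ against 1.41 on the 5′ side. By 10-base steps of spacing it ran without order between 1.25 (30 to 39 bases, and 100 or more) and 1.76 (90 to 99 bases, 22 sites).

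**Figure D4:**
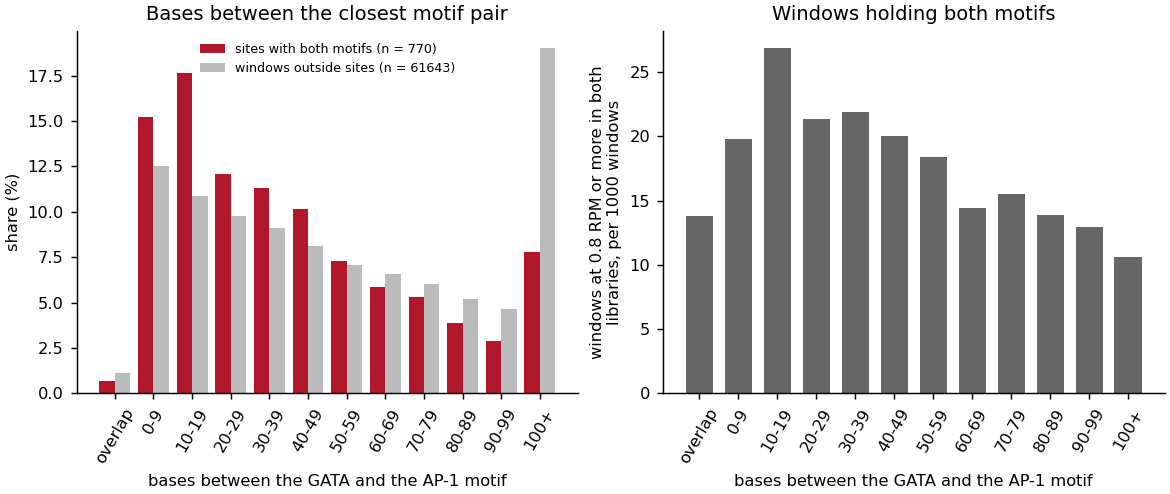
The left panel gives the percent of the 770 sites (red) and of the 61643 windows outside sites (grey) by the number of bases between the closest GATA and AP-1 motif. The right panel gives the windows at 0.8 RPM or more in both libraries per 1000 windows with both motifs, which peaks at 26.8 for 10 to 19 bases and is 10.6 at 100 or more.

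By copy number, 503 sites held 1 GATA and 1 AP-1 motif, 235 held at least 2 GATA motifs and 47 at least 2 AP-1 motifs. Windows at the threshold numbered 15.6 per 1000 with 1 of each, 22.2 with 2 GATA and 1 AP-1, and 35.0 with 1 GATA and 2 or more AP-1. With 2 GATA and 2 or more AP-1 motifs the figure was 79.1, from 17 of 215 windows. It was 34.7 with 3 GATA and 1 AP-1, and 15.9 with 4 or more GATA and 1 AP-1, a set that includes simple repeats like that at 3110018I06Rik. The 6 sites of this set had median heights of 3.04 and 3.22 RPM, against 1.68 and 1.49 RPM at sites with 1 of each motif. The 3110018I06Rik site had 32 and 41 reads and was among the lowest, at 0.815 RPM in library 1. The Tmem131 site, with 5 dispersed copies, was in contrast among the 20 tallest with 191 and 114 reads. The Il7r and Slc6a5 sites, with 3 AP-1 motifs, had 70 and 33 reads and 71 and 38 reads, close to the median of all 770.

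By form, the GATA motif of the closest pair was AGATAA at 334 sites (43.4%, against 31.3% of all windows with both motifs), TGATAA at 188 (24.4% against 24.9%), AGATAG at 150 (19.5% against 25%) and TGATAG at 98 (12.7% against 18.8%). Windows at the threshold numbered 23.2 per 1000 with AGATAA, 17.2 with TGATAA, 14.8 with AGATAG and 13.6 with TGATAG. The median RPM of the sites differed little by form, between 1.63 and 1.78 in library 1 and between 1.49 and 1.58 in library 2. TGACTCA and TGAGTCA are each other's reverse complement, so the form of the AP-1 motif gives only its strand. Next to the AP-1 motif, read as TGACTCA, a T stood just before it in 13.8% of the copies at these sites, in 12.7% at sites with AP-1 only and in 19.4% of copies outside sites. An A just after it stood in 16.6%, 15.6% and 23.1%.

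Other listed motifs, also searched on both strands, were counted in the same windows and in the flanks 1 kb away, as a description. The AP-1 variant TTAGTCA was in 7.01% of the 770 windows against 2.27% of flanks, and at 6.84% in sites with neither motif. AGATCT was in 11.9% against 6.36%, the partial MAF motif TGCTGA in 20.4% against 14.1%, the ETS motif CAGGAAG in 10.5% against 7.53% and the T-box motif GGTGTGA in 4.16% against 2.34%. The RUNX motif TGTGGT was in 17.4% against 15.5%. The NFAT motif GGAAAA, in contrast, was in 12.5% against 19.9%, and the paired-GAAA motif of the IRF family in 2.08% against 4.48%. The other distal sites held most of these at similar shares. With GATA only, AP-1 only and neither motif, the ETS motif was in 10.6%, 9.26% and 10.3%, the T-box motif in 3.48%, 5.09% and 3.78%, and AGATCT in 13.7%, 16.0% and 11.2%. The RUNX motif was in 17.9%, 21.8% and 20.2%, the partial MAF motif in 18.8%, 22.7% and 16.6%, the NFAT motif in 16.3%, 14.4% and 16.7% and the IRF motif in 3.44%, 2.31% and 3.47%. The differences from flanks are therefore not described as particular to the 770 sites. The composites of an IRF and an AP-1 part that BATF and IRF4 are known to bind (with the parts adjacent, and with 4 bases between them) were in 22 and 11 of the 770 windows and in 0 of 1540 flanks. Both composites include letters of the AP-1 motif, which the rule required and 4.03% of flanks held. At sites with AP-1 only they were in 2.55% and 1.62%, near the 2.86% and 1.43% with both motifs. With the rule's motifs masked, 1378 words of 6 letters were in at least 5% of the 770 windows, and only these were ranked. Among them the highest ratio to the flanks was that of TAGTCA, in 14.4% against 6.95%. It was in 14.8% of the sites with neither motif.

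Transposase cuts along the motifs were compared with copies of the same motif outside sites, because Tn5 has a sequence preference of its own. The pattern over 29 bases around the AP-1 motif at the 770 sites followed that outside sites, with r of 0.962 in library 1 and 0.954 in library 2, and the pattern around the GATA motif with r of 0.962 and 0.923. These are descriptions over bases of the same libraries. Relative to the cuts 30 to 60 bp away, the middle 3 bases of AP-1 had 0.642 and 0.554 at these sites against 0.480 and 0.470 outside sites. At sites with AP-1 only they had 0.614 and 0.698, so the difference is not described as particular to the 770 sites. Over all letters the values at the 770 sites were 1.12 and 1.07 against 1.03 and 0.947 outside sites for AP-1. For GATA they were 1.18 and 1.19 against 1.23 and 1.09. Sites with AP-1 only had 1.16 and 1.17 over the AP-1 letters, and sites with GATA only 1.19 and 1.18 over the GATA letters. The GATA letters were thus below the outside copies in library 1 and above them in library 2. Neither motif had fewer cuts over its letters than outside copies in both libraries.

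**Figure D5:**
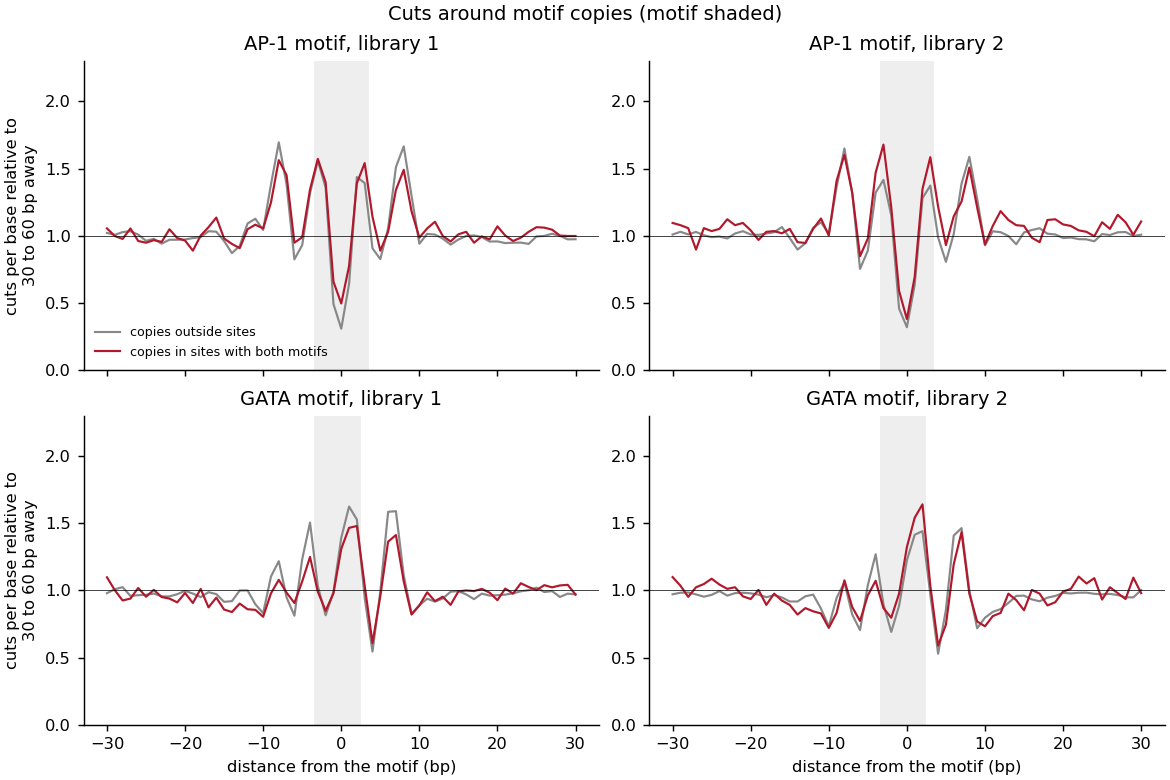
Lines give the mean Tn5 cuts per base relative to the mean 30 to 60 bp away (y axis) against the distance from the motif's middle base in bp (x axis), for the AP-1 motif (top) and the GATA motif (bottom) in library 1 (left) and library 2 (right). Shading marks the motif letters, and the red line (copies at the 770 sites) follows the grey line (copies outside sites) in all 4 panels.

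Within the sites, the base with the most smoothed cuts lay a median of 48 bp apart in the 2 libraries. This sets the precision with which a motif can be placed. The nearest GATA motif was a median of 48 and 52.5 bp from it in library 1 and library 2, and the nearest AP-1 motif 52 and 53 bp. At the 512 sites with a pair at least 20 bp apart, GATA was the nearer motif at 252 and AP-1 at 260 in library 1. In library 2 the numbers were 231 and 281. Which motif lies nearer to the summit was not tested.

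By place in the genome, 429 of the 770 sites lay in introns, 317 between genes and 24 in exons. The intron share was 55.7%, against 57.7% with GATA only, 56.3% with AP-1 only and 56.4% with neither. The median distance to the nearest start was 24.6 kb, and 460 sites lay downstream of the start. The median distance was 24.4 kb for AP-1 only, 21.6 kb for GATA only and 20.4 kb for neither motif. Another site of any class lay within 25 kb of 422 of the 770 (54.8%), against 55.4% with GATA only, 55.8% with AP-1 only and 56.9% with neither. GC content had a median of 44.3% in the windows, the same as for GATA only, compared with 46.3% with neither motif and 43.3% in bins at large. Repeats covered most of the window at 11 sites (1.43%) against 26.2% of bins at large, and the other distal sites were similarly low (3.07% with GATA only, 1.62% with AP-1 only and 2.04% with neither). The study's methods state that reads without a unique position were left out, and the part of this in the difference was not tested.

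The nearest starts of the 770 sites belonged to 717 of 20807 protein-coding genes (3.45%). A nearest start does not show which gene a site acts on. A site was nearest for 667 genes, 2 sites for 47 and 3 sites for Peli1, Med13 and Adsl. Peli1 encodes a ubiquitin ligase, Med13 a subunit of the Mediator kinase module and Adsl an enzyme of purine synthesis. The tallest Peli1 site had 158 and 97 reads and the lowest 32 and 21. The 3 sites assigned to Adsl lay in Tnrc6b.

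Of 24 listed TH2 genes, 4 were nearest to a site with both motifs (16.7%), beside the 3.45% of all genes, and 17 to a distal site of any class (70.8%), beside 22.3%. The first share is read beside the second, which holds for every list below. Over all 20807 genes the counts were 717 and 4643. A gene with more distal sites has more chances of one with both motifs. Cd44 and Il7r of the lists below, for example, each had 9 distal sites, of which 1 held both. Among all distal sites 9.53% held both motifs, so the shares of genes are not read as a preference of the pair for any list. The Il9 site, 6.05 kb upstream of the start, had the highest lower RPM of the 4, with 72 and 44 reads (1.83 and 1.83 RPM). The Cd200r1 site, in an intron, had 86 and 38 reads (2.19 and 1.58 RPM). The Il4ra site, 8.42 kb upstream, had 47 and 32 reads (1.2 and 1.33 RPM). The Il24 site, 7.25 kb upstream, had 52 and 23 reads (1.32 and 0.955 RPM) and stood only 3.53- and 2.25-fold over its surroundings, which held 14.7 and 10.2 reads per bin against medians of 4.77 and 3.03 around all 770 sites. The Il9 and Cd200r1 sites lay above the median height of the 770 in their lower RPM and the other 2 below it. Il4, Il5, Il13 and Gata3 itself had distal sites nearest to their starts, 3, 2, 5 and 1, and 0 of them held both motifs. Beside the 9.53% of all distal sites, 0 of so few is not read as an absence of the pair.

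Of 20 genes of AP-1 and related bZIP factors, 5 were nearest to such a site (25%), and 12 to any distal site. The Batf site, in an intron of the gene, had 136 and 55 reads (3.46 and 2.28 RPM). The Jun site, 71.3 kb upstream, had 94 and 53 reads (2.39 and 2.20 RPM). Nfe2l2, Atf3 and Batf3 sites had 59 and 41, 53 and 36, and 61 and 27 reads. Batf and Jun were above the median height, and the other 3 near or below it. Fos and Bach2 had 6 and 10 distal sites, 0 of them with both motifs. Beside the 9.53% of all distal sites, this too is not read as an absence.

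Of 24 T cell activation genes, 5 had such a site (20.8%) and 19 any distal site. The Egr3 site had 138 and 86 reads (3.51 and 3.57 RPM), the Irf4 site 130 and 74 (3.31 and 3.07 RPM), and the Cd44 site 86 and 58 (2.19 and 2.41 RPM). Egr3 and Irf4 encode transcription factors induced by the T cell receptor, and Cd44 an adhesion receptor of activated T cells. The Nfkb1 and Tnfrsf9 sites were low, with 53 and 25 reads and 32 and 25 reads.

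Of 15 naive and thymic T cell genes, 4 had such a site (26.7%) and 14 any distal site. These were Ikzf1, among the 20 tallest, Tox (85 and 43 reads), Il7r (70 and 33 reads) and Satb1 (46 and 27 reads). Of 13 TH1 genes, Fasl (71 and 34 reads, 99.4 kb from the start) and Il18rap (48 and 25 reads) had a site with both motifs (15.4%), and 11 any distal site (84.6%). Of 13 genes of TH17, Treg and Tfh cells, only Ahr had such a site (7.69%, 81 and 50 reads), and 8 any distal site (61.5%). Sites thus also lay near genes of other T cell programmes, and no difference between the lists was tested. Of 27 integrin genes, 2 had such a site, Itga2 (59 and 40 reads) and Itgae (47 and 46 reads), which is 7.41%, and 12 had any distal site (44.4%). Of 8 genes each of B cells, myeloid cells, neurons and liver, 0 were nearest to a site with both motifs, and 1 of each 8 was nearest to any distal site (12.5%).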

How the data were processed

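Gata3 ChIPmentation of TH2 cells was deposited as 1 BED file for each of 2 libraries, 1 line per aligned read. Per the methods, Bowtie2 mapped the single reads (GRCm38) and the authors dropped those without a unique place. The submitters' processing notes list Bowtie2 2.3.5.1 and MACS2 2.1.2, and the tool that removed duplicates is not given in the sources used here. The deposited score is the mapping quality and not a measure of binding, and it was used only in an alternative. The 5′ ends were moved 100 bp towards 3′ and counted in 200-bp bins, as RPM. Gene starts were taken from GENCODE M21. Tn5 cuts of plus-strand reads were placed at the centre of the transposase's target duplication, and those of minus-strand reads 1 bp beside it. Cut patterns are therefore blurred by that much at single bases, at the sites and outside them alike.

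The members and lists were chosen with earlier results of these data known. Named genes are those nearest to the 20 tallest sites, genes with 4 or more sites (there were 0) and listed genes with a site. Smad3, Tspan3, Ctse, Slc6a5, 3110018I06Rik, Lrrc6, Lonrf1, Slc6a20a, Peli1, Med13, Adsl, the listed genes without such a site and the genes under other observations were named after their values were seen. The only test was the exact binomial test of the libraries per site, on an expected share of 63.1% in library 1 (its share of the reads in all centre bins) with Benjamini-Hochberg adjustment over 10800 sites. It and the site calling were run on simulated data. The planted sites stood far above the threshold on an even background, so calls near the threshold were not tested. Depth limits a centre bin of 20 to 37 reads to a wide Poisson interval, and intervals are 95% exact.

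Alternatives were other thresholds, bin offsets, motif windows, distances and motif forms, a mapping quality of at least 30, thinning of library 1, reads not moved, a local fold, each library alone, a wider test window and an expected share from the library totals. Reading heights in the library not used for calling was added later. Python 3.11.15, NumPy 2.4.6, SciPy 1.17.1, pandas 2.3.3 and Matplotlib 3.10.9 were used.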

Additional observations from a re-analysis of the deposited data

How the results depend on the processing

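The number of distal sites with both motifs, 770 as reported, was 1070 at 0.6 RPM, 615 with an added 5-fold excess over 10 kb, 492 at 1.2 RPM, 251 with the motifs within 50 bp and 391 with AGATAA as the only GATA form, and ran from 835 to 1118 with 1 library left out. Their share of distal sites, 9.53% as reported, was 8.15% at 0.6 RPM, 11.4% at 1.2 RPM, 3.11% with the motifs within 50 bp, 10.9% with the 5-fold excess and 4.84% with AGATAA only, and ran from 8.5% to 8.52% with 1 library left out. The median of the lower RPM, 1.45 as reported, was 1.12 at 0.6 RPM, 1.91 at 1.2 RPM and 1.66 with the 5-fold excess. With 1 library left out there is no lower value, and the median RPM of the remaining library ran from 1.35 to 1.41. It was 1.08 in library 2 at sites called in library 1 alone and 1.60 in library 1 at sites called in library 2 alone. The median spacing, 33 bases, was 21 with the motifs within 50 bp, where 49.0% of pairs lay within 20 bases. With 1 library left out the spacing was 34 and the share within 20 bases 32.6% to 34.3%. The sites with both motifs that differed between the libraries were 3 by the exact binomial test on centre bins. At 0.6 RPM there were 5 (0.467% of the sites with both motifs, beside 0.517% of all sites called). With reads not moved there was 1 (0.125%, beside 0.470% of all sites). With the reads within 500 bp there were 131 (17.0%, beside 19.5% of all sites). The number was 0 at 1.2 RPM (46 at an unadjusted p under 0.05, beside 0.261% of all sites called). It was also 0 with the motifs within 50 bp (25, beside 0.611% of all sites). The cause of these shifts was not tested. With the mapping quality filter, the bin offset, thinning of library 1 and a distance of at least 5 kb, the number of sites lay between 669 and 786, the share between 9.34% and 9.97%, the median lower RPM between 1.37 and 1.45 and the spacing between 31.5 and 34 bases.

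No paired analysis was possible because both libraries belong to the same condition. With 2 libraries, leaving one out left no test between libraries. The lower depth of library 2 sets its centre bins at 20 reads at the threshold against 32 in library 1. Counting intervals are wide there, and modest differences between libraries could be missed. There was no input library, so local openness, copy number and mappability were not separated from Gata3 binding, and a site without a motif match is not shown to lack the factor.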

Other observations

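Sites with both motifs outside the distance limits are given as values, with genes chosen after their values were seen. Beyond 100 kb from a start, 223 of 1908 sites held both motifs (11.7%), and within 1 kb of a start 34 of 812 did (4.19%). The tallest was nearest to Stk17b, at 123 kb, with 208 reads in library 1 and 130 in library 2 (5.29 and 5.40 RPM). A site 117 kb from Fasl, the Fas ligand gene, had 188 and 146 reads (4.79 and 6.06 RPM), taller than the site with both motifs at 99.4 kb from the same start (71 and 34 reads). A site 124 kb from Gadd45g held 3 AP-1 motifs and had 176 and 125 reads. Sites at 472 kb from Myc and 231 kb from Runx1, genes of T cell growth and of T cell development, had 140 and 85 reads and 124 and 86 reads. Within 1 kb of a start the tallest was that of Zfp414, with 173 and 94 reads.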
